A study of Homo sapiens with 3 samples.

Results

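The genes described here are 33 known or likely targets of the transcription factor SRF and of the coactivators YAP and TAZ, read on 3 expression arrays that measured 19775 genes. The list covers actin filament proteins, adhesion proteins, secreted matrix-associated proteins, membrane proteins and a few regulators. It was drawn up with results of these arrays known, so every value below is a description and carries no test. Each gene is represented by 1 probe set, the one with the highest mean log2 signal among those whose annotation names that gene alone.

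The arrays came from cultures of HepG2, per the labels, a line from a human hepatocellular tumour grown in DMEM with fetal bovine serum. They had stably taken up an Hsp27 ORF vector (a vector that carries the open reading frame of the small heat shock protein Hsp27), an Hsp27 shRNA vector (short hairpin RNA against it) or a control vector. There was 1 array for each vector, and the labels do not say whether a culture was a clone or a pool. A single array per vector gives no replicate error and no p-value, and no way to tell a vector from the culture that carried it. HSPB1, the gene of Hsp27, had a log2 signal of 13.11 on the array labelled ORF, 13.03 on that labelled shRNA and 13.25 on that labelled control. The highest level stood on the control, against the ORF label, so each direction below rests on the labels alone. ACTB, a sign of RNA integrity, had a 3′ over 5′ signal ratio of 2.40, 2.23 and 2.70 in the same order. Its part in the results was not tested. The labelled cell type was not borne out by its defining markers. Of 8 hepatocyte markers read by the array, 0 had a mean at the 75th percentile of all probe sets, and ALB (albumin) read at most 4.88 against a pooled median of 5.93.

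SRF binds a short A- and T-rich element, the CArG box, and drives genes of the contractile and actin cytoskeleton. Its cofactors MRTFA and MRTFB are held in the cytoplasm by monomeric actin and enter the nucleus when actin polymerises. YAP and TAZ (TAZ is encoded by WWTR1) enter the nucleus when cells spread or when Hippo kinases are inactive, and act through TEAD factors, which recognise GGAATG. Both routes respond to actin tension, and several genes, among them CCN1 and CCN2, are known targets of both. Hsp27 is itself known as a regulator of actin filaments downstream of p38 kinase.

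The promoters of 5 members are shown because they carry the elements named above beside genes that did and did not differ between the arrays. All are the 250 bases before the start site, 5′ to 3′ on the gene's strand, from RefSeq on GRCh38.p14, with each CArG box or GGAATG element in capitals. The ACTG2 window (chr2:73892758-73893007, plus strand) holds 2 CArG boxes, the CNN2 window (chr19:1026358-1026607, plus strand) 1 and the SRF window (chr6:43171019-43171268, plus strand) 2. The CCN2 window (chr6:131951373-131951622, minus strand) holds 3 GGAATG elements, and the THBS1 window (chr15:39580829-39581078, plus strand) holds 1.
ACTG2: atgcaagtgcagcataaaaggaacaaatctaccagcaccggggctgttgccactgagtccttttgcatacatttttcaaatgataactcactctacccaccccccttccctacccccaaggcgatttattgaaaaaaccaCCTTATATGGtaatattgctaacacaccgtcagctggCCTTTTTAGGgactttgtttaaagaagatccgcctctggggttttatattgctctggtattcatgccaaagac
CNN2: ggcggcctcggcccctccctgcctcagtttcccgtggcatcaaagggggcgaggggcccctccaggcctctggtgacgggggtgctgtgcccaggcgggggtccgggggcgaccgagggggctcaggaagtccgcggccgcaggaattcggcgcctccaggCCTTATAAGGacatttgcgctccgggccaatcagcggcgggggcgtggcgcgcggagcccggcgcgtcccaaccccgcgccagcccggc
SRF: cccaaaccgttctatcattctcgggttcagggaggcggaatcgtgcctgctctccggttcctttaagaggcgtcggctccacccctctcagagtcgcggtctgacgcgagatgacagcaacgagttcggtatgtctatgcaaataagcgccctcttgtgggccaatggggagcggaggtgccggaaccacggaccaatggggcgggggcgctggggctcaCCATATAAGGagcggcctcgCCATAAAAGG
CCN2: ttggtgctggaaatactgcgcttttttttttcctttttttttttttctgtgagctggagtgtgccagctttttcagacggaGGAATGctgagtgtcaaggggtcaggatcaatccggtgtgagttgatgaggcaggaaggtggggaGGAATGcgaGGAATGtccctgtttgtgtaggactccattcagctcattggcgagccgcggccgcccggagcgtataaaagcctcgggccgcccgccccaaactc
THBS1: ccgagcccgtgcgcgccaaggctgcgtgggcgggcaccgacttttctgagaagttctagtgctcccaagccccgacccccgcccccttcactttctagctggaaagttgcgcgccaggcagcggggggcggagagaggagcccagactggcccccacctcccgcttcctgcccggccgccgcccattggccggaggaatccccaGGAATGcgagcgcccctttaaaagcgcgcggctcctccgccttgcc

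Of the 33 members, 28 had a promoter window in the RefSeq table, and CRIM1, DLC1, MYL9, TAGLN and CCN1 had none there. The CArG box was searched as CC, 6 bases that are each A or T, and GG, a form that reads the same on both strands. GGAATG was searched on both strands (CATTCC on the other), and the motifs do not overlap in the sequences shown. The search window ran from 250 bases before the start site to 50 after it, and genes can have several windows. In the first window listed for each gene, 5 of the 28 members (17.9%) held a CArG box, against 1.29% of all 27305 genes: ACTG2, CNN2, TPM4, FHL2 and SRF. The TEAD element was in that window of 7 members (25.0%), against 14.0% of all genes: CALD1, VCL, CCN2, THBS1, TGFB2, ANKRD1 and NUAK2. A member without a match lacks these letters in this window and no more.

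Of the 33 genes, 28 were measured, meaning that their probe set stood above a floor at the pooled median log2 signal (5.93) on at least 1 array. TPM3 and FHL1 were not analysed here, and NUAK2 was read only by a probe set shared with AKIP1, at 10.18 with ORF, 10.42 with shRNA and 10.38 with control. CNN1 (calponin 1) and DLC1 were below the floor on all arrays, with highest readings of 3.49 and 5.63. ANKRD1 (a muscle ankyrin repeat protein and much used YAP readout) lay just inside, at 6.03 with shRNA and 5.96 with control, and read 1.95 with ORF. Of the 28, 26 were bright, meaning that at least 1 array reached the 75th percentile of all probe sets (8.63). Most members were thus well expressed, as the plot of log2 signals by array shows.

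**Figure D1:**
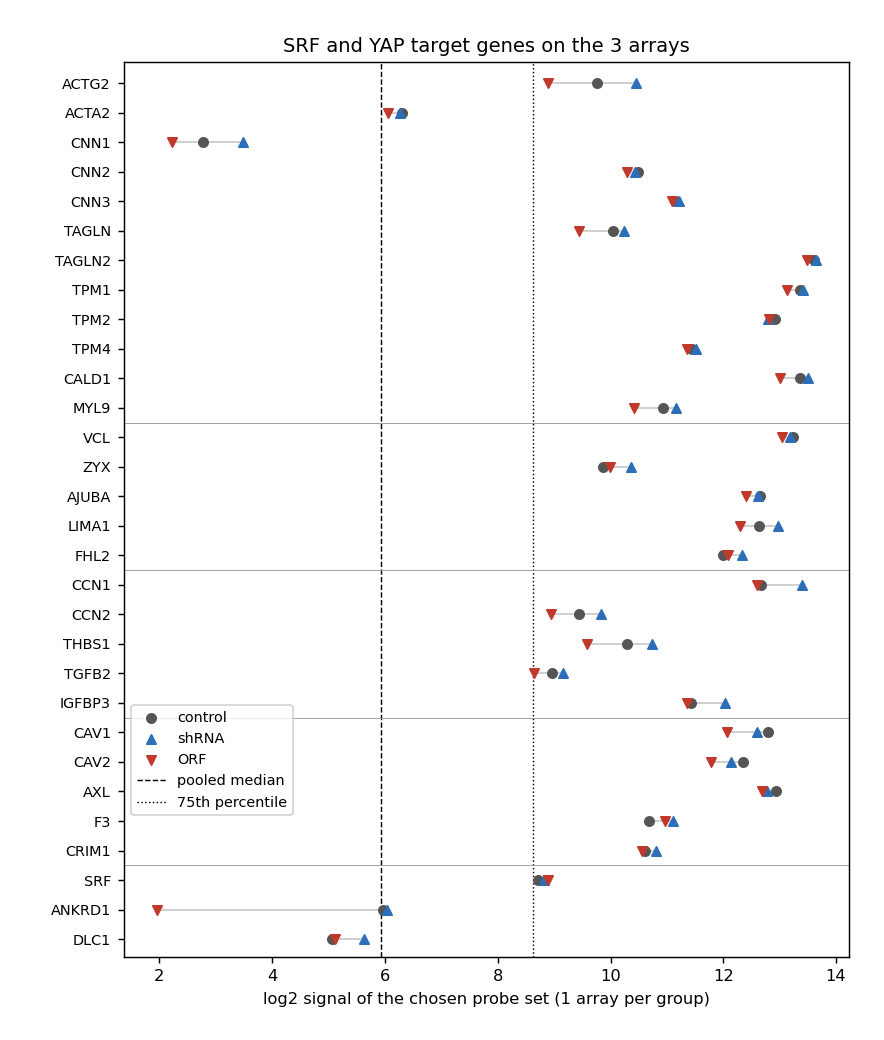
Log2 signal (x axis) of the chosen probe set of the 30 members that had one (y axis, grouped by role from contractile proteins at the top to regulators at the bottom) on the arrays labelled ORF, shRNA and control, 1 point per array. Dashed and dotted lines mark the pooled median (5.93) and the 75th percentile (8.63). The ORF point is the leftmost of the 3 for ACTG2, TAGLN, MYL9, THBS1, CCN2 and CAV1, and the shRNA point is the rightmost for all of these except CAV1.

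The members read lower on the array labelled ORF than on the array labelled shRNA, and the control mostly lay between. The log2 ratio of ORF to shRNA was below 0 for 26 of the 28 measured members (92.9%), where it was below 0 for 46.8% of all 12664 measured genes. Of the members, 8 were at least 1.5-fold lower with ORF (28.6%) and 0 higher, against 2.68% and 2.64% of all measured genes. Their median log2 ratio was −0.27, beside 0.005 over all measured genes. The 26 bright members can be set beside bright genes, whose ratios scatter less. Of them 8 were at least 1.5-fold lower, against 0.953% of bright genes, and 24 were below 0, against 46.9%.

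The order ORF below control below shRNA held for 16 of the 28 members (57.1%), against 13.2% of all measured genes. ORF was the lowest of the 3 arrays for 23 members (82.1%), against 27.2%. shRNA was the highest for 19 (67.9%), against 32.9%. Each share counts a gap of any size: shRNA was above control by 0.03 for TAGLN2 and by 0.05 for TPM1. ANKRD1 counts in each, and in the counts of ratios below or above 0. Its ORF reading was below the floor and was set to it, with log2 ratios of −0.03 to control and −0.10 to shRNA. As the rule drew on these arrays, the shares describe the members and nothing is read from their excess.

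**Figure D2:**
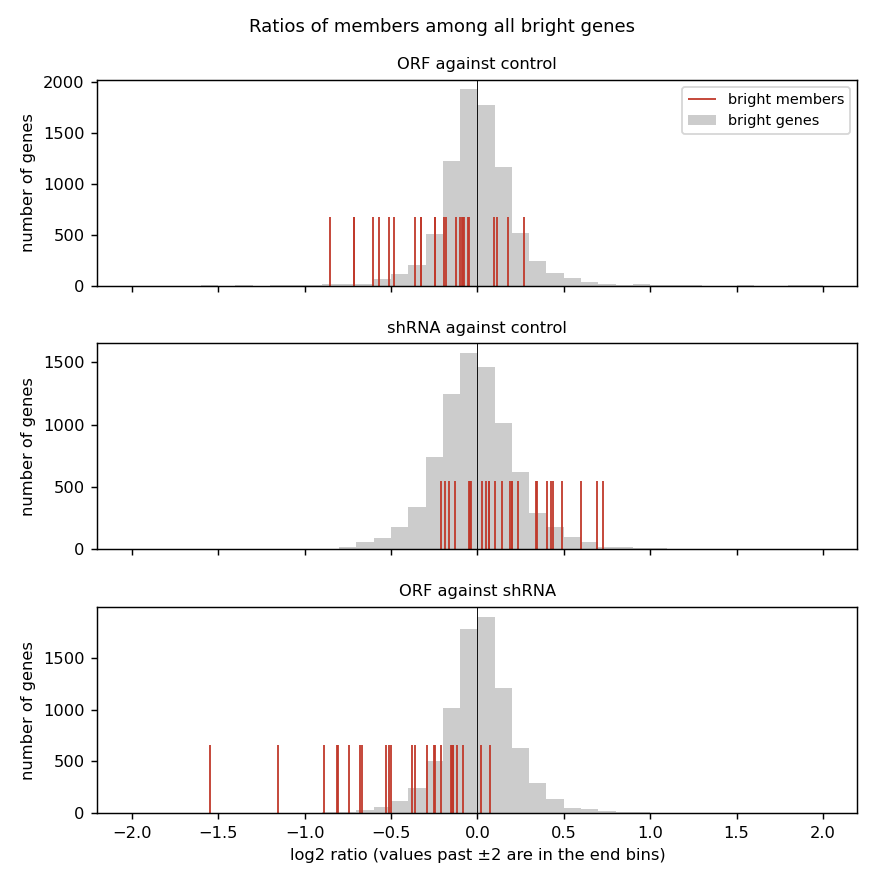
Number of genes (y axis) by log2 ratio (x axis, bins of width 0.1) for all bright genes (grey bars), with the 26 bright members as red lines of fixed height, in the 3 comparisons. In ORF against shRNA 24 of the 26 red lines lie left of 0 and 8 are past −0.58, the 1.5-fold mark.

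Against the control, the members were lower with ORF and higher with shRNA, by smaller amounts. With ORF 24 of 28 were below 0 (all measured genes 49.4%), 4 were at least 1.5-fold lower (all 2.82%, bright genes 0.926%) and 0 were higher (all 3.04%), with a median of −0.22. With shRNA 20 of 28 were above 0 (all 47.2%), 3 were at least 1.5-fold higher (all 3.59%, bright genes 1.82%) and 0 were lower (all 3.30%), with a median of 0.12. Both comparisons use the same control array, so their values are not independent of each other.

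An error from probe behaviour, called the noise SD here, came from probe sets that read the same gene: it is the SD of the difference between the log2 ratios of such a pair over the square root of 2, at similar signal. It ranged from 0.078 for bright to 0.43 for dim genes, and it leaves out all variation between cultures. By more than 2 noise SD, 15 of the 28 members were lower with ORF than with shRNA (all measured genes 4.88%) and 0 were higher (all 4.53%). Against control, 13 were lower (all 6.07%) and 1 higher (all 5.83%) with ORF by that measure. With shRNA, 0 were lower (all 4.45%) and 8 higher (all 4.57%).

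**Figure D3:**
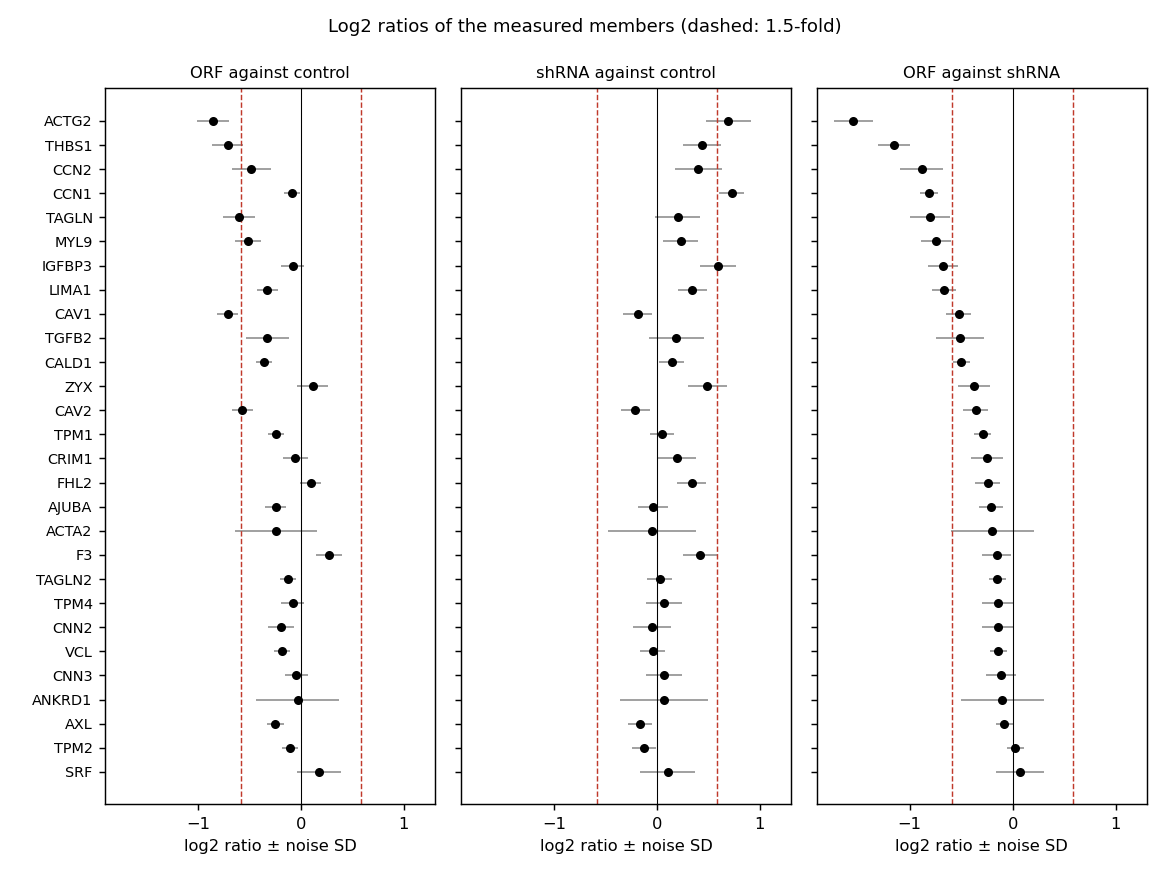
Log2 ratio (x axis) with its noise SD (bars) of the 28 measured members (y axis, ordered by ORF against shRNA) in the 3 comparisons. Dashed lines mark 1.5-fold. The first 8 genes, from ACTG2 (−1.55) to LIMA1 (−0.67), lie past the line in the right panel, and CAV1 (−0.53) is the next inside it.

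Among the actin filament and contractile genes, 3 of 11 measured members were at least 1.5-fold lower with ORF than with shRNA (all measured genes 2.68%). These were ACTG2, TAGLN and MYL9. ACTG2 (smooth muscle gamma actin, a classic SRF target) showed the widest difference of all members. Its log2 signal was 8.90 with ORF, 10.45 with shRNA and 9.75 with control. The array labelled ORF was thus 2.92-fold below the array labelled shRNA (log2 ratio −1.55, noise SD 0.19), with control between them: ORF was 1.81-fold below control and shRNA 1.62-fold above it. It was the only member past 1.5-fold in all 3 comparisons. The second ACTG2 probe set was below the floor throughout, so the value rests on 1 probe set. Its promoter, with 2 CArG boxes, is shown above.

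TAGLN (transgelin, an actin cross-linking protein of smooth muscle) read 9.44 with ORF, 10.24 with shRNA and 10.04 with control. ORF stood apart below the other arrays, with log2 ratios of −0.80 to shRNA (noise SD 0.19) and −0.60 to control (noise SD 0.15). A second bright probe set gave −0.64 and −0.62. The dim one, at 6.46 with ORF, 5.96 with shRNA and 6.46 with control, gave 0.50 for ORF against shRNA, so the direction holds for the bright probe sets only.

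MYL9 (a myosin regulatory light chain of smooth muscle and non-muscle cells) read 10.41 with ORF, 11.15 with shRNA and 10.92 with control. ORF was again the lowest, 1.68-fold below shRNA (log2 ratio −0.74, noise SD 0.14) and 1.43-fold below control. The second MYL9 probe set was below the floor throughout, so this value too rests on 1 probe set. CALD1 (caldesmon, which regulates actin and myosin interaction) read 13.00, 13.50 and 13.36 in that order, and at −0.50 for ORF against shRNA it stayed inside 1.5-fold. Its 10 probe sets above the floor gave ratios from −0.70 to 0.52, with 7 below 0, and CALD1 makes several isoforms that these can read apart.

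The tropomyosins, which coat actin filaments, and the broadly expressed calponins and transgelin differed less. TPM1 read 13.13 with ORF, 13.42 with shRNA and 13.37 with control, a log2 ratio of ORF to shRNA of −0.29 (noise SD 0.083), and its 4 other probe sets above the floor also lay below 0, between −0.42 and −0.15. TPM2 was one of the 2 members above 0, at 0.02 with its chosen probe set, while its 2 others above the floor gave −0.25 and −0.81, the last from a dim reading. TPM4 was at −0.15, and its other probe sets above the floor, of similar signal, gave 0.12 and −0.14. CNN2 (−0.14) and CNN3 (−0.12), calponins of non-muscle cells, and TAGLN2 (−0.15) were each at most 1.14-fold apart in any comparison with their chosen probe sets. The second CNN3 probe set gave −0.30 for ORF against shRNA, or 1.23-fold. CNN2 and TPM4 hold a CArG box in their windows, as ACTG2 does, yet lay close to 0. ACTA2 (smooth muscle alpha actin) was barely above the floor, at 6.06 with ORF, 6.26 with shRNA and 6.30 with control, within its noise SD of 0.40.

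The secreted members differed most as a group: 4 of 5 were at least 1.5-fold lower with ORF than with shRNA (all measured genes 2.68%). The group's median log2 ratio was −0.81. With the median over each gene's probe sets above the floor, THBS1 and IGFBP3 fell inside 1.5-fold, while CCN1 and CCN2 stayed past it. With the chosen probe sets, all 5 stood in the order ORF, control, shRNA. THBS1 (thrombospondin 1, a matricellular protein that activates latent TGF-beta) read 9.58 with ORF, 10.73 with shRNA and 10.29 with control. It was 2.22-fold lower with ORF than with shRNA (log2 ratio −1.15, noise SD 0.15) and 1.64-fold lower than control. Of its 5 probe sets above the floor, 4 were below 0 for ORF against shRNA, at −1.15, −0.86, −0.42 and −0.36. The fifth was above the floor on the control array only and gave 0.

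CCN1 and CCN2 are matricellular proteins that bind integrins and are the most used readouts of YAP and TEAD activity. CCN1 (also CYR61) read 12.59 with ORF, 13.40 with shRNA and 12.68 with control. Here the array labelled shRNA stood apart, 1.65-fold above control (log2 ratio 0.73, noise SD 0.12), while ORF was within 0.09 of control. Its second probe set gave 0.60 and −0.23 for those ratios. For ORF against shRNA both probe sets agreed, at −0.81 and −0.83.

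CCN2 (also CTGF) read 8.95 with ORF, 9.84 with shRNA and 9.43 with control, with control near the middle. Its log2 ratio was −0.89 for ORF against shRNA (noise SD 0.21), −0.48 for ORF against control and 0.40 for shRNA against control. It had 1 probe set. IGFBP3 (an insulin-like growth factor carrier) followed CCN1 rather than CCN2: it read 11.35 with ORF, 12.03 with shRNA and 11.43 with control. Its ratio of shRNA to control was 0.60 (noise SD 0.17), just past 1.5-fold, and that of ORF to shRNA −0.68. Its second probe set gave 0.40 and −0.09, and there control was lowest, at 8.81 against 9.12 with ORF and 9.21 with shRNA. TGFB2 (a transforming growth factor) was at −0.51 for ORF against shRNA (noise SD 0.23), inside 1.5-fold. Its 2 other probe sets above the floor gave −0.47 and −0.24. The last of these read highest with control, at 6.92 with ORF, 7.16 with shRNA and 7.31 with control.

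Of the adhesion and LIM domain members, LIMA1 alone passed 1.5-fold. LIMA1 (EPLIN, which stabilises actin bundles and links cadherin to actin) read 12.30 with ORF, 12.97 with shRNA and 12.62 with control. Control lay midway, with log2 ratios of −0.32 for ORF and 0.34 for shRNA against it, and −0.67 between them (noise SD 0.12). Its 2 other probe sets above the floor gave −0.44 and −0.25 for ORF against shRNA. ZYX (zyxin, which repairs stress fibres) and FHL2 (a LIM-only protein that binds SRF) took another order, with control lowest: ZYX read 9.99 with ORF, 10.37 with shRNA and 9.88 with control, and FHL2 12.08, 12.33 and 11.99. VCL (vinculin, which ties talin to actin) and AJUBA (a LIM protein that inhibits LATS kinases) were at most 1.19-fold apart in any comparison with their chosen probe sets. Another AJUBA probe set gave 0.50 for shRNA against control and −0.46 for ORF against shRNA.

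**Figure D4:**
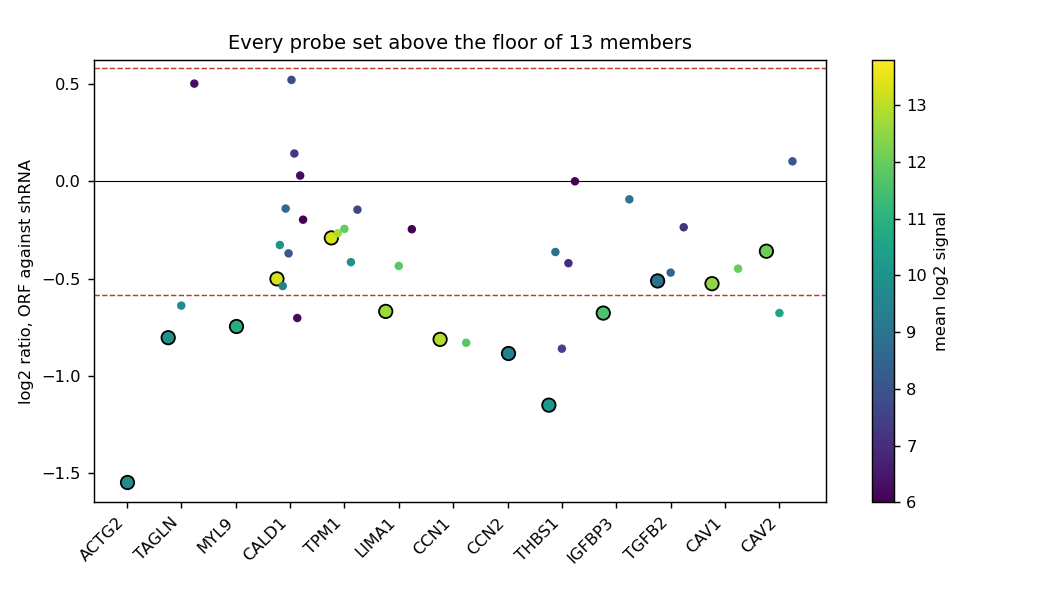
Log2 ratio of ORF to shRNA (y axis) for every probe set above the floor of 13 members (x axis), coloured by mean log2 signal. Large outlined points are the chosen probe sets. The 2 CCN1 points coincide near −0.81, the THBS1 points spread from −1.15 to 0, and the dim TAGLN point stands at 0.50.

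The membrane members split. CAV1 and CAV2 form caveolae, the tension-buffering pits of the plasma membrane, and are next to each other on chromosome 7 in RefSeq's gene order. CAV1 read 12.07 with ORF, 12.60 with shRNA and 12.79 with control, and CAV2 11.78, 12.14 and 12.34. Control was the highest for both, unlike with the chosen probe sets of the secreted group. CAV1 was 1.64-fold lower with ORF than with control (log2 ratio −0.71, noise SD 0.10), and its second probe set gave −0.89. CAV2 was just inside 1.5-fold at −0.57 with its chosen probe set, and its 2 others gave −0.83 and −0.97. With shRNA their chosen probe sets were at −0.19 and −0.21 against control. The second CAV1 probe set gave −0.44 there, and the 2 others of CAV2 gave −0.15 and −1.07.

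AXL (a receptor tyrosine kinase) also read highest with control, at 12.69 with ORF, 12.77 with shRNA and 12.94 with control. Its second probe set read 8.75, 9.31 and 9.28, with shRNA and control close together and a log2 ratio of ORF to shRNA of −0.56. F3 (tissue factor, which starts coagulation) read lowest with control, at 10.96, 11.11 and 10.69. F3 was the 1 member higher with ORF than with control by more than 2 noise SD (log2 ratio 0.27, noise SD 0.12). CRIM1 (a membrane protein that binds bone morphogenetic proteins) had a log2 ratio of −0.25 for ORF against shRNA, and its 2 other probe sets gave −0.44 and −0.39.

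SRF, which is among its own targets, did not follow its target genes. It read 8.89 with ORF, 8.82 with shRNA and 8.71 with control, with log2 ratios of 0.18, 0.10 and 0.07 for the 3 comparisons, each within its noise SD of at least 0.21. In the list of SRF with its cofactors and partner factors, 1 of 7 was past 1.5-fold with ORF. This was MYOCD (myocardin, the SRF coactivator of heart and smooth muscle), which read 7.00 with ORF, 8.22 with shRNA and 8.09 with control. Its log2 ratio was −1.22 for ORF against shRNA and −1.09 against control, and its second probe set gave −0.62 and −0.49. MYOCD stayed below the 75th percentile on all arrays. MRTFA was at −0.06 and MRTFB at −0.21 for ORF against shRNA.

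In the YAP and TEAD machinery, 18 of 20 listed genes were measured, with a median log2 ratio of −0.06 for ORF against shRNA. YAP1 read 13.13 with ORF, 13.20 with shRNA and 13.06 with control, and WWTR1 10.99, 11.09 and 11.11, so the coactivators were at most 0.13 apart on the log2 scale. The TEAD factors lay between −0.20 (TEAD1) and 0.22 (TEAD4). VGLL3 (a TEAD cofactor) was at −0.75 for ORF against shRNA, and its second probe set gave −0.43. AMOTL2 (an angiomotin that holds YAP at junctions and is itself a YAP target) was at −0.63, with 11.55 with ORF, 12.18 with shRNA and 11.50 with control, a pattern like that of CCN1. AMOTL1, a related angiomotin, differed instead between control (10.20) and both other arrays (8.37 with ORF and 8.52 with shRNA). Dimmer AMOTL1 probe sets gave smaller ratios to control. For ORF and shRNA these were −0.82 and −0.82 (both readings set to the floor) and −0.26 and −0.20.

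Other target genes outside the 33 had medians nearer 0. Among 13 further YAP and TEAD targets, 9 were below 0 for ORF against shRNA, with a median of −0.10; 1 was at least 1.5-fold lower (AMOTL2) and 1 higher. The latter was NT5E (the ectonucleotidase CD73), at 8.84 with ORF, 7.87 with shRNA and 7.74 with control. For ORF against shRNA that is opposite to the secreted members above. Other NT5E probe sets gave 0.65, 0.16 and, from a dim reading, 0.09. Those at 0.65 and 0.16 put shRNA above control, by 0.50 and 0.70. CCDC80 (−0.59 for ORF against control) and ARHGEF17 (−0.73 for shRNA against control) passed 1.5-fold in other comparisons. Among 16 measured cytoskeletal SRF targets, 8 were below 0 and the median was −0.03. It was −0.27 for the 28 measured members and −0.20 for the 11 of them that are contractile genes. Of the 16, the 1 past 1.5-fold was MYLK (myosin light chain kinase, which phosphorylates MYL9), at 8.68 with ORF, 9.92 with shRNA and 10.28 with control. ACTB (beta actin) read 15.07, 15.02 and 15.25. Of 5 measured immediate early SRF targets 0 were past 1.5-fold for ORF against shRNA. Against control, EGR1 was at −0.89 and JUNB at 0.60 with shRNA. The EGR1 reading with shRNA, 5.78, was below the floor (noise SD 0.43).

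Several members mark smooth muscle or fibroblasts. Of 8 smooth muscle and pericyte markers outside the list, 7 were measured and 0 had a mean at the 75th percentile. The log2 of the summed linear signal of all 8 was 10.24 with ORF, 10.28 with shRNA and 10.42 with control, a sum set mostly by the brighter ones. MYH11 (smooth muscle myosin) was below the floor throughout. For ORF against shRNA, 2 of the 7 measured were below 0, as most members were: MYOCD (−1.22) and DES (desmin, −0.63). RGS5 (0.56), CSPG4 (0.47), SMTN (0.23) and SYNPO2 (0.11) went the other way, and LMOD1 was at 0. DES (noise SD 0.37), RGS5 (0.40), CSPG4 (0.26), SMTN (0.23) and SYNPO2 (0.41) were all within 2 noise SD. RGS5 read 5.75 with shRNA, below the floor. LMOD1 was below the floor with ORF (5.33) and with shRNA (5.46), which set its ratio to 0. CSPG4 was also at −0.67 for shRNA against control. Of 10 fibroblast and stellate cell markers, 7 were measured and 3 had a mean at the 75th percentile: LUM, COL1A1 and DCN. The log2 of the summed linear signal of all 10 was 13.40, 13.69 and 13.65 in the same order. That sum mostly reads LUM, by far the brightest, at 13.03, 13.35 and 13.30. For ORF against shRNA, 3 of the 7 measured markers were below 0 and the median was 0. That 0 is the value of COL1A2, which was below the floor with ORF (3.67) and with shRNA (5.19). COL1A1 was at −0.65 for ORF against shRNA and DCN at 0.43, so they did not go the same way. For shRNA against control they were at 0.80 and −0.90. Of the endothelial, leukocyte and epithelial markers, CDH5 (−0.79 for ORF against control), CD3E (0.79) and KRT8 (−0.83) passed 1.5-fold. CDH5 read 5.79 with ORF and CD3E 4.69 with control, both below the floor, and both ratios were within 2 noise SD (noise SD 0.40). THY1, PDGFRA and POSTN were below the floor. The part of these cell types in the results was not tested, and in such bulk samples fewer cells of a type cannot be told apart from less RNA per cell.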

How the data were processed

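Biotin-labelled cRNA from total RNA was read on 3 arrays, per the labels' protocols. The authors deposited 1 log2 signal for each probe set and array. MAS5 is named in the submitters' processing notes, with its version and scaling target not given in the sources used here. The log2 scale was read from the values: the 2% trimmed mean of the linear signal was 500.1 on each array. Names of the 54675 probe sets came from the platform annotation at GEO. Of these 41097 had 1 gene symbol, 1801 had several and 11777 had no listed symbol; only the first kind was used, and 41043 of them matched RefSeq's gene table by gene ID.

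Arrays were scaled to equal 2% trimmed means and floored at the pooled median, and log2 ratios were taken for 12664 genes above it on at least 1 array, so ratios of dim genes are understated. The noise SD came from 5483 pairs of probe sets less than 1 log2 unit apart, in 20 bins of signal. Calls are 1.5-fold differences. Arrays were grouped by their transfection label. Members and gene lists were chosen with earlier results of these data known. Every member is accounted for, and those at least 1.5-fold apart are given with all 3 signals. Genes of the reported lists that were at least 1.5-fold apart are named, some by their ratios alone. Members described for other reasons were named after their values were seen. The scripts were tested on simulated data. Python 3.11.15, numpy 2.4.6, pandas 2.3.3 and statsmodels 0.14.6 were used. The number of arrays limits the precision. One listed gene set is not reported here.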

Additional observations from a re-analysis of the deposited data

How the results depend on the processing

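Array scaling hardly mattered: under quantile normalization, loess centring and equal medians above the floor, every member called in a comparison was called again. Equal medians moved the median for ORF against control to −0.24 and brought CAV2 (−0.59) past 1.5-fold there, for 5 members lower in place of 4. The fold threshold and the probe set did matter. At 1.3-fold, 7 members were lower with ORF than with control (all measured genes 7.17%) and 7 higher with shRNA than with control (all 8.88%). At 2-fold these counts were 0 (all 0.497%) and 0 (all 0.671%), and 2 members, ACTG2 and THBS1, were lower with ORF than with shRNA (all 0.458%). With the median over all probe sets, members lower with ORF than with shRNA numbered 4 in place of 8 (all 1.39%), those higher with shRNA than with control 1 in place of 3 (all 1.9%), and the medians became −0.092 (ORF over control), 0.072 (shRNA over control) and −0.24 (ORF over shRNA). With the median over probe sets above the floor, 5 members were lower with ORF than with shRNA (all 2.13%) and the median for ORF against control was −0.16. Without _x_at and _s_at probe sets 18 members remained measured, and 4 were lower with ORF than with shRNA (all 2.95%). Of the 8 called before, 3 stayed called, and TAGLN, MYL9, LIMA1, THBS1 and IGFBP3 did not. MYL9, LIMA1 and IGFBP3 had no measured probe set left. CAV2 (−0.68) was newly past 1.5-fold. The medians were −0.14 (ORF against control) and −0.33 (ORF against shRNA). TAGLN turned to 0.50 for ORF against shRNA, read there by its dim probe set. With no floor the medians were −0.24 for ORF over control, 0.17 for shRNA over control and −0.37 for ORF over shRNA. With the floor at the 75th percentile they were 0.17 for shRNA against control and −0.33 for ORF against shRNA. Among the single member ratios, 582 values under an alternative moved by less than the noise SD and 53 by more. Another 1 (TAGLN, above) turned its direction from past 1.5-fold. Part of the 582 could not move. A member above the floor on all arrays keeps its ratio with no floor. The same holds with the floor at the 75th percentile for a member above that on all arrays. A member with 1 probe set above the floor keeps its ratio under the median over such probe sets. Turns of direction were counted only for ratios past 1.5-fold, and some smaller ratios also changed sign. TPM1 for ORF against control went from −0.24 to 0.075 without _x_at and _s_at probe sets, and IGFBP3 from −0.080 to 0.11 with the median over all probe sets. Signal over background limits ACTA2, ANKRD1, CNN1 and DLC1. No paired analysis was possible because each group has 1 array.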
